A study of Mus musculus with 8 samples.

Results

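The genes described here encode the proteins of the cytosolic ribosome. They were taken from the array's gene table by symbol, as names that begin with Rpl or Rps and a digit or p, with Rpsa added and the Rps6 kinase genes and pseudogenes left out, and each gene was read from its brightest probe. This rule gave 68 of the 19321 genes on the array, 41 of the large subunit and 27 of the small subunit. Of these, 59 are canonical ribosomal protein genes, 7 are paralogues of a canonical gene (Rpl3l, Rpl10l, Rpl22l1, Rpl36al, Rpl39l, Rps4l and Rps27l), and 2 carry the name without being known parts of the mature ribosome (Rpl7l1 and Rps19bp1). A filter on dim probes left 67 for the tests, and 66 were listed in the authors' deposited values on all 8 arrays. Rpl3l was listed on no array and Rpl37 on 5 of 8, and the P-stalk genes Rplp0, Rplp1 and Rplp2 were not analysed here.

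Total RNA of bulk mouse liver was measured on 8 arrays of 1 colour (Cy5). The groups were 3 liver tumours of mice on high fat diet, 3 pieces of non-tumour liver tissue of the same mice, and 2 livers of mice on normal diet. Every mouse, those on normal diet included, had been given the carcinogen DMBA at an age of 4 to 5 days and was then kept on its diet for 30 weeks, so no group shows an untreated liver. Tumour and non-tumour arrays share mouse numbers (117, 186 and 1), while the normal diet arrays carry the numbers 117 and 120 and come from other animals. Strain and sex are not given in the labels used here.

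Ribosomal proteins fold and hold the ribosomal RNA, the large subunit forming the peptide bond and the small subunit reading the messenger RNA. They are made in matched amounts, and in vertebrates most of their messenger RNAs begin with a run of pyrimidines, the terminal oligopyrimidine tract, through which mTOR signalling controls their translation. Hepatocytes hold many ribosomes because they secrete most plasma proteins, and ribosome production generally goes up when liver cells grow.

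The start of the transcript is where these genes resemble each other, and 54 of the 68 had a sequence around the start in the RefSeq annotation of GRCm38.p6. A run of at least 8 pyrimidines on the sense strand, between 50 bases before and 50 bases after an annotated start, was found in 43 of the 54 (79.6%), against 39.3% of all 27025 genes with a sequence. On the other strand such a run was found in 12 members (22.2%), against 41.1% of all genes. The letters CTTTCC, which are all pyrimidines and can lie inside such a run, were found on the sense strand of 17 members (31.5%), against 5.43% of all genes, and on the other strand of 2 (3.70%), against 5.12%. The letters CTTCCG were found on the sense strand of 11 members (20.4%), against 5.41% of all genes, and on the other strand of 14 (25.9%), against 5.92%. The windows printed here run from 10 bases before the annotated start to 20 bases from it, with the longest run of at least 5 pyrimidines in capitals. The first 11 belong to genes whose transcripts rose in tumours and the last to Rps19, which fell, and they were chosen after those values were seen.
Rpl22l1, chr3:28805498-28805527, plus strand: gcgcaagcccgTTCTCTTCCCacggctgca
Rpl28, chr7:4792955-4792984, plus strand: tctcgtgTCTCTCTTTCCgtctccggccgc
Rpl13a, chr7:45128726-45128755, minus strand: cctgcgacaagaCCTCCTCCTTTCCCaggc
Rps6, chr4:86857348-86857377, minus strand: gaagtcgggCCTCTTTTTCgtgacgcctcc
Rps10, chr17:27635225-27635254, minus strand: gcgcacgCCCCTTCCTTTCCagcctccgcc
Rpl23, chr11:97782420-97782449, minus strand: gtccggtcacgtggctgagtgggcggggcc
Rps13, chr7:116334171-116334200, minus strand: caaacgtcggtgagtggcgtcaCTTCCTgt
Rpl5, chr5:107900518-107900547, plus strand: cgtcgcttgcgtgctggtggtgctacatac
Rpl41, chr10:128549149-128549178, minus strand: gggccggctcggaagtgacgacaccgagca
Rps15, chr10:80292421-80292450, plus strand: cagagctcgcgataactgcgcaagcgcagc
Rps16, chr7:28350679-28350708, plus strand: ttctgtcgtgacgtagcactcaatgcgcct
Rps19, chr7:24884582-24884611, plus strand: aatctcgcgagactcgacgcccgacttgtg
In these windows Rpl22l1, Rpl28, Rpl13a, Rps6 and Rps10 have a run at the start and Rps13 a short one further on, while Rpl5, Rpl23, Rpl41, Rps15 and Rps16, which also rose, have none. Rps19 is shown at the first of its 3 annotated starts and has none there either. Except for Rpl23 and Rps13, all 12 hold a run of at least 8 pyrimidines in the wider window, Rps19 included. The windows follow annotated starts, and where the transcripts begin in these livers was not measured. A run at one gene and none at another says nothing of what binds there.

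Levels below are the authors' deposited intensities, a linear scale on which the median listed probe of every array is 25. Differences are on the log2 scale after quantile normalization with an offset of 50, which understates the change of dim probes, and a gene rose or fell where limma's adjusted p, over 16800 genes, was below 0.05. The arrays differed in their upper range: the mean deposited intensity of all listed probes was 210 to 241 on tumour arrays, 259 to 274 on non-tumour arrays and 307 on both normal diet arrays. Of the 67 tested ribosomal protein genes 42 had a mean deposited intensity of at least 1000, in that upper range, and 15 lay below 100. In bulk tissue, fewer cells of a type and less RNA per cell cannot be told apart.

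Tumours were set against non-tumour tissue of the same livers first. Transcripts of both ribosomal subunits were higher in tumours: 42 of the 67 tested genes rose and 1 fell, where 12.0% of all genes rose and 13.4% fell. In the large subunit 26 of 40 rose, with a median difference of 0.57, and in the small subunit 16 of 27 rose and 1 fell, with a median of 0.44. The median over all genes was -0.01. Among canonical genes alone, 25 of 35 of the large and 16 of 24 of the small subunit rose, and of the 8 tested others 1 rose. On quantile normalized values, 48 of the 66 genes listed everywhere had all 3 tumours above all 3 non-tumour samples and 2 had them below, where 19.6% and 22.8% of all genes did so. In the deposited values 28 genes had all tumours above and 2 below, where 15.2% and 23.3% of all genes did.

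**Figure D1:**
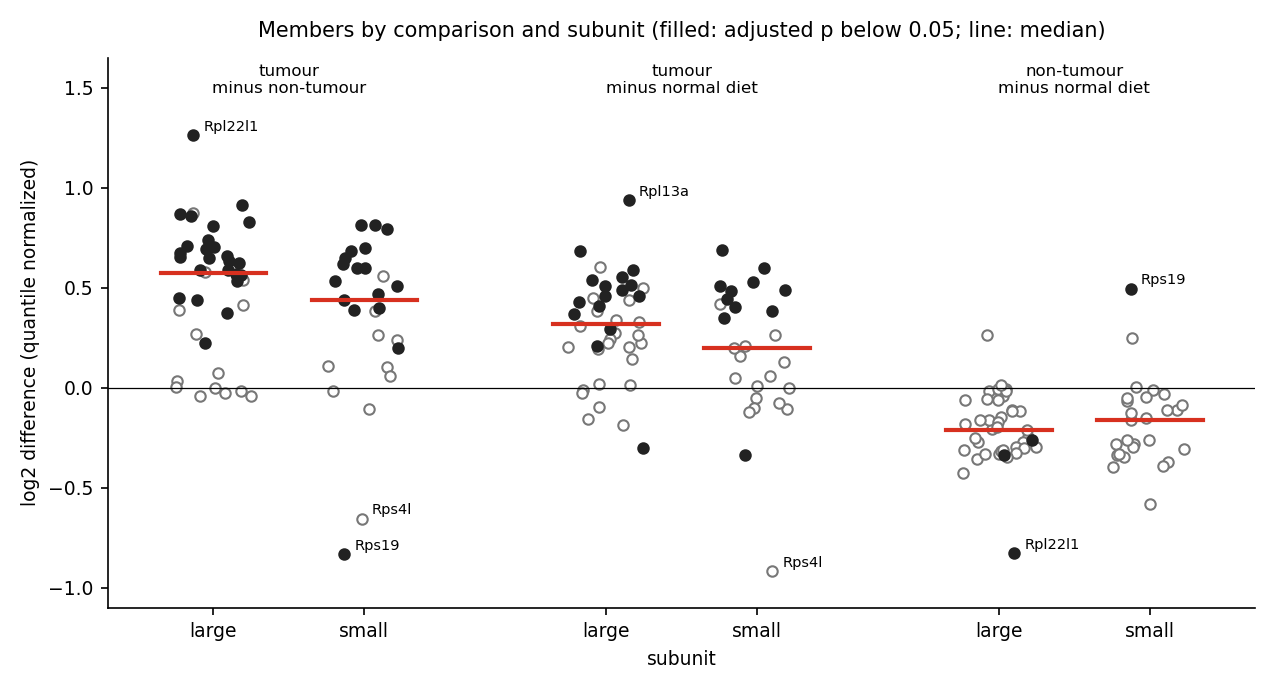
Each point is 1 ribosomal protein gene, by comparison and subunit, at its log2 difference after quantile normalization (vertical axis), filled where the adjusted p was below 0.05, with a line at the median. Against non-tumour tissue most tumour values of both subunits lie above 0 (medians 0.57 and 0.44), with Rps19 far below it at -0.83.

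The count depends on the scaling, while both medians were above 0 under every alternative tried. With every array scaled to the same median 26 genes rose and 1 fell, where 9.36% of all genes rose and 15.7% fell, with medians of 0.36 for the large and 0.24 for the small subunit. On the authors' values 14 rose and 2 fell, where 8.99% of all genes rose and 13.4% fell, with medians of 0.34 and 0.24. With the mouse as a block 37 rose, 25 of the large and 12 of the small subunit, and 1 fell, where 9.82% of all genes rose and 11.0% fell, and 36 of these are among the 42. When the local background reading of each spot was subtracted no gene rose or fell by limma's test (7 higher and 1 lower at an unadjusted p below 0.05), and 126 of all 16800 genes passed. Over the probes of an array that reading had a rank correlation of 0.902 to 0.960 with the spot signal. Of the canonical genes named in this comparison as having risen, Rpl7, Rpl10, Rpl11, Rpl39, Rps14 and Rps27 passed neither with arrays scaled to the same median nor in the deposited values. Rps4x, Rps6 and Rps16 passed with the same median, at 0.42, 0.59 and 0.49, and not in the deposited values, at 0.38, 0.56 and 0.45.

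Among large subunit genes Rpl32 had the largest canonical rise. Its deposited intensity was 7024, 5199.7 and 6286 in the tumours of mice 117, 186 and 1, against 4784, 4082 and 3319 in their non-tumour tissue. Every tumour was above every non-tumour sample, and the log2 difference was 0.91 ± 0.17 (SE, adjusted p = 0.0101). Rpl3, which shapes the site of peptide bond formation, was 1911, 2116 and 2095 in tumours, against 1145, 1546 and 1337 in non-tumour tissue, again without overlap. Rpl23a, which lies at the exit of the peptide tunnel, was 5325, 4342 and 5285 in tumours, against 3738, 2885 and 3362 in non-tumour tissue. The difference of Rpl23a was 0.83 ± 0.13 (SE, adjusted p = 0.00522). Rpl28 was dimmer but tight, with 498, 583 and 587 in tumours, against 355, 332 and 374 in non-tumour tissue. Its difference was 0.81 ± 0.06 (SE, adjusted p = 0.000630). Rpl4, whose protein lines the peptide tunnel, was 4008, 3761 and 4365 in tumours, against 2699, 3001 and 3026 in non-tumour tissue. The Rpl4 groups did not overlap, and the difference was 0.71 ± 0.06 (SE, adjusted p = 0.000663).

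Rpl5, Rpl11 and Rpl23 encode proteins that, when free of the ribosome, bind the p53 ligase Mdm2 and inhibit it. Rpl5 was 7243, 5645 and 6814 in tumours, against 4814, 4894 and 3863 in non-tumour tissue, with every tumour above every non-tumour sample. Rpl23 was 402, 373 and 511 in tumours, against 262, 268 and 302 in non-tumour tissue, a difference of 0.74 ± 0.09 (SE, adjusted p = 0.00210), also without overlap. Rpl11 was 2252, 1974 and 2617 in tumours, against 1803, 1878 and 2249 in non-tumour tissue. Its groups overlapped in the deposited values, where the tumour of mouse 186 lay below the non-tumour tissue of mouse 1. Rpl11 rose by the test on quantile normalized values (0.44 ± 0.09, SE, adjusted p = 0.0142), but its adjusted p was 0.424 in the deposited values, and it ran from 0.0106 to 0.846 over 19 alternatives.

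Among small subunit genes Rps10, which is mutated in some human Diamond-Blackfan anaemias, was 3439.7, 2763 and 4147 in tumours. In non-tumour tissue Rps10 was 2330.0, 2253 and 2290.4. All tumours were above all non-tumour samples, and the difference was 0.82 ± 0.08 (SE, adjusted p = 0.00112). Rps6, the small subunit protein that kinases downstream of mTOR phosphorylate, was 4654, 4121 and 5897 in tumours, against 3265, 2782 and 3869.9 in non-tumour tissue. Rps6 rose by 0.81 ± 0.12 (SE, adjusted p = 0.00453). Rps13 rose by 0.79 ± 0.07 (SE, adjusted p = 0.000894), with 2834, 2870.3 and 3131 in tumours, against 2171, 1844 and 2045 in non-tumour tissue. Rps15 had the narrowest tumour values of these genes, 1918, 1938 and 1939.8, against 1416, 1414 and 1491 in non-tumour tissue. It rose by 0.68 ± 0.07 (SE, adjusted p = 0.00117). Rps16 was 4289, 3819.5 and 5391 in tumours, against 2753, 3690.5 and 3399 in non-tumour tissue, where the tumour of mouse 186 stood just above the non-tumour tissue of the same mouse. The difference of Rps16 was 0.70 ± 0.13 (SE, adjusted p = 0.0105).

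Rps14, deleted in a human myelodysplastic syndrome, stood nearer the threshold. Its deposited intensity was 4742, 3909.5 and 6231 in tumours, against 4233, 4356 and 4661 in non-tumour tissue, and the groups overlapped because the tumour of mouse 186 was the lowest of the 6. Rps14 rose by 0.44 ± 0.12 (SE, adjusted p = 0.0430), and with the mouse as a block its adjusted p was 0.0640, within a range of 0.0113 to 0.953 over 19 alternatives. Rpsa, whose protein also serves as a laminin receptor, was 59.9, 49.1 and 95.1 in tumours, against 39.1, 39.9 and 46.8 in non-tumour tissue. All Rpsa tumour values were above the non-tumour values in this dim range, but the difference of 0.38 ± 0.15 (SE) did not pass (adjusted p = 0.111). Rps2, brought in here after its values were seen, was bright and had 8678, 9454 and 11265 in tumours, against 8361, 10832 and 13224 in non-tumour tissue. The Rps2 groups overlapped throughout their range, and the difference of 0.24 ± 0.16 (SE) did not pass (adjusted p = 0.350).

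Rps19, the gene most often mutated in human Diamond-Blackfan anaemia, went the other way. Its deposited intensity was 42.7, 45.2 and 53.0 in tumours, against 112, 113 and 140.3 in non-tumour tissue and 83.4 and 73.7 in normal diet liver. The 3 groups did not overlap, with non-tumour tissue highest and tumours lowest. These values come from 1 dim probe, with a mean of 83.0 over the 8 arrays, where 42 of the 67 tested members were at 1000 or more. Whether that probe reads Rps19 alone was not checked. Rps19 fell by 0.83 on the log2 scale in tumours relative to non-tumour tissue (SE 0.06, adjusted p = 0.000508), and its difference was -1.37 in log2 of the deposited values. It was the only tested member that fell in this comparison on quantile normalized values, and it fell under 18 of 19 alternatives, the exception being the subtraction of the local background.

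The change differed with signal, as the plot of differences against intensity shows. Over all genes, at any intensity, 12.0% rose and 13.4% fell, and shares of all genes within an intensity class are not given here. Of the 42 members with a mean deposited intensity of at least 1000, 35 rose and 0 fell, with a median difference of 0.60 (limma; the unadjusted counts over all 67 tested members were 49 higher and 2 lower). Of 10 members between 100 and 1000, 5 rose, with a median of 0.47. Of 15 members below 100, 2 rose (Rpl14 and Rps24) and 1 fell (Rps19), with a median of 0.06. With the mouse as a block Rps24 did not pass (adjusted p = 0.0754, over 19 alternatives 0.0108 to 0.841). Rpl14, named after its values were seen, averaged 28.2 ± 4.46 in tumours and 17.4 ± 1.78 in non-tumour tissue (SD, n = 3 each), without overlap. Its difference was 0.22 ± 0.05 (SE, adjusted p = 0.0174) with the offset, and 0.69 in log2 of the deposited values, which carry no offset. Dim and bright probes are thus not on an equal footing on this scale. Of the 42 tested members with a pyrimidine run of at least 8 near the start 29 rose and 1 fell (Rps19), with a median of 0.56. Of the 11 tested without it 5 rose, with a median of 0.41. Both counts stand beside the 12.0% of all genes that rose, and the gap between them was not tested.

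**Figure D2:**
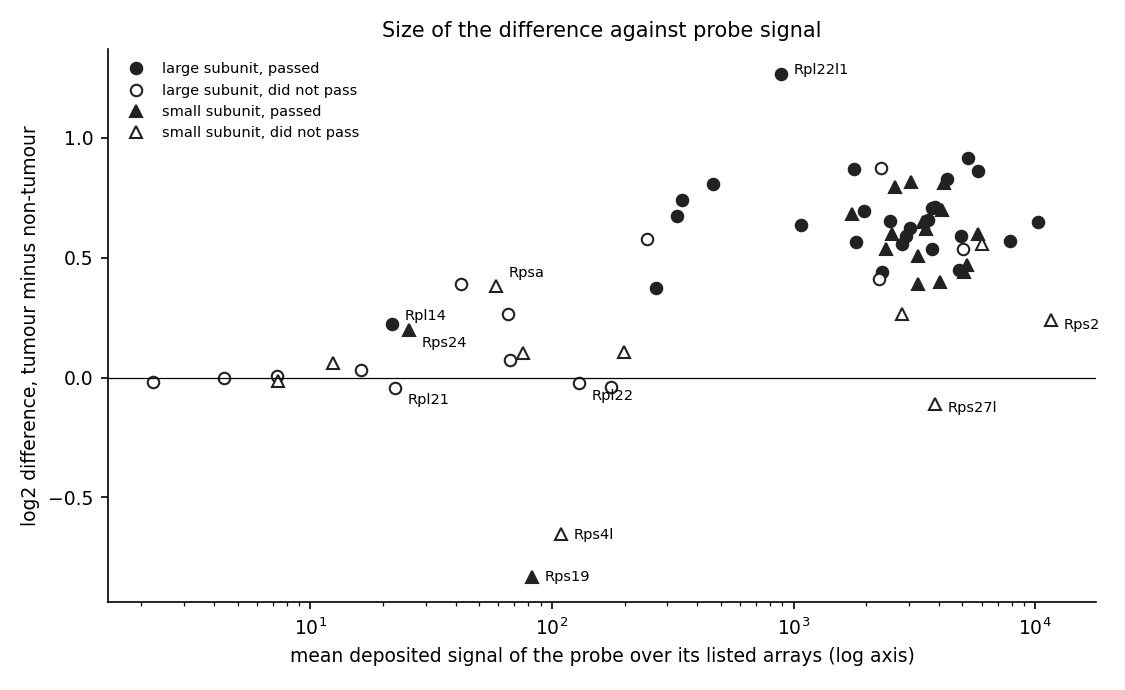
Each point is 1 ribosomal protein gene (circles large, triangles small subunit, filled where the test passed), with its mean deposited intensity on a log axis and its log2 difference between tumour and non-tumour tissue on the vertical axis. Most genes brighter than 1000 lie near the median of 0.60 of their class, genes below 100 mostly lie near 0, and Rps19 is lowest at -0.83.

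Paralogues of ribosomal proteins did not follow 1 pattern. Rpl22l1 had the largest difference of all members, 1.26 ± 0.14 (SE, adjusted p = 0.00178). It was 1049.7, 1041 and 1157 in tumours, against 519, 628 and 442 in non-tumour tissue and 1009 and 1274 in normal diet liver, so tumours and normal diet liver were both above every non-tumour sample. Its canonical partner Rpl22, whose protein in mice represses Rpl22l1, was 106, 112 and 120.5 in tumours, against 106, 123 and 146 in non-tumour tissue. Rpl22 overlapped between these groups, with a difference of -0.02 ± 0.07 (SE, adjusted p = 0.859).

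For the pair Rps27 and Rps27l, the first rose by 0.51 ± 0.11 (SE, adjusted p = 0.0196) and the second, a p53 target in human cells, did not pass (-0.11 ± 0.13, SE, adjusted p = 0.623). Rps27l was 3106, 2403 and 3764 in tumours, against 3387, 4379 and 4142 in non-tumour tissue, with overlap. The difference of Rps27 was 0.27 with arrays scaled to the same median, 0.29 with the 75th percentile and 0.24 in the deposited values, and passed in none of these. The difference between the 2 genes of a pair was not tested. Rps4x rose by 0.62 ± 0.10 (SE, adjusted p = 0.00643), while Rps4l had a lower level in every tumour: 70.7, 53.6 and 43.8, against 109, 90.0 and 159.8 in non-tumour tissue. The Rps4l difference of -0.65 ± 0.25 (SE) did not pass (adjusted p = 0.114), but in the deposited values it was -1.08 and passed, at an adjusted p of 0.0402 within a range of 0.0402 to 0.284 over 19 alternatives. Rpl7 rose by 0.59 ± 0.09 (SE, adjusted p = 0.00478), and Rpl7l1, a factor of ribosome assembly, had a difference of -0.04 ± 0.08 (SE, adjusted p = 0.772). Rpl36a and Rpl36al had differences of 0.87 ± 0.26 and 0.54 ± 0.22 (SE), neither of which passed (adjusted p = 0.0510 and 0.136). With the mouse as a block Rpl36a passed, at an adjusted p of 0.0454 within a range of 0.0309 to 0.867 over 19 alternatives. Rpl10 and Rpl39 rose by 0.57 ± 0.13 and 0.63 ± 0.15 (SE, adjusted p = 0.0196 and 0.0235), and neither passed with the mouse as a block (adjusted p = 0.0586 and 0.0579, over 19 alternatives 0.00708 to 0.970 and 0.0137 to 0.905). The paralogues Rpl10l and Rpl39l, known from testis, were at 2.1 to 5.9 and 5.4 to 8.6 on the 8 arrays, near the lower end of what the authors listed, and did not pass.

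Within each mouse the tumour was higher for most members. Of the 67, 60 were higher in the tumour of mouse 117, 57 in that of mouse 186 and 61 in that of mouse 1, with median differences of 0.55, 0.35 and 0.62. The same counts over all genes of the array are not given here. By subunit, the medians in mice 117, 186 and 1 were 0.58, 0.42 and 0.71 for the large subunit and 0.48, 0.22 and 0.53 for the small subunit. The large subunit median was therefore above that of the small subunit in each mouse. On the deposited scale 58, 46 and 59 of 66 members were higher in the tumour, with medians of 0.32, 0.17 and 0.46. The tumour of mouse 186 was the lowest of the 3 tumours for 46 of 66 members on quantile normalized and 45 on deposited values, and the tumour of mouse 1 the highest for 44 and 54. Without the tumour of mouse 186, 49 members rose, and the share of all genes that rose in that fit is not given here.

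**Figure D3:**
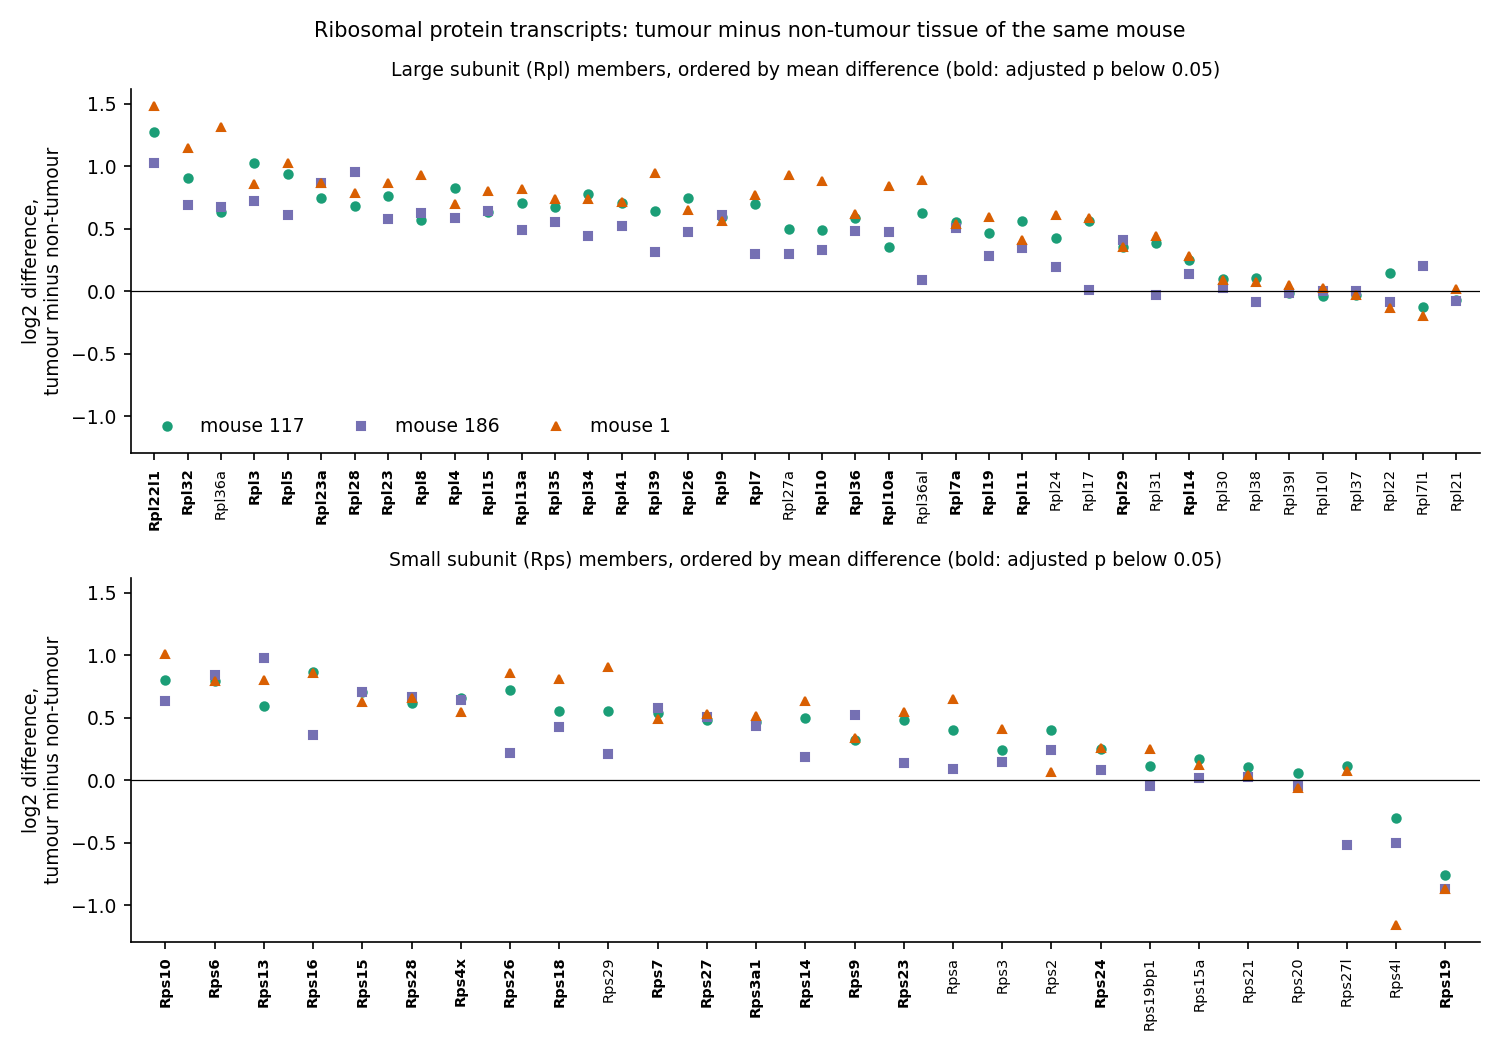
For each ribosomal protein gene (horizontal axis, large subunit above, small subunit below) 3 points give the log2 difference of the tumour from the non-tumour tissue of mice 117, 186 and 1, with names in bold where the adjusted p was below 0.05. Most points lie above 0 in every mouse, those of mouse 186 (squares) are often the lowest, and all 3 points of Rps19 lie below 0.

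Each array's median over the members, relative to each gene's mean over all arrays, summarises the subunits. For the large subunit it was 0.32, 0.16 and 0.39 in the tumours of mice 117, 186 and 1, against -0.26, -0.24 and -0.28 in non-tumour tissue and -0.10 and 0.01 in normal diet liver. For the small subunit it was 0.22, 0.07 and 0.34 in tumours, against -0.26, -0.23 and -0.11 in non-tumour tissue and -0.03 and 0.03 in normal diet liver. Both subunits thus had the same order on quantile normalized values: tumours highest, normal diet liver between, non-tumour tissue lowest, without overlap. The large minus the small subunit median was 0.10, 0.09 and 0.05 in tumours, against 0.01, -0.01 and -0.17 in non-tumour tissue and -0.07 and -0.02 in normal diet liver. Under the 3 scalings shown in the plot of subunit medians this gap was 0.048 to 0.127 on tumour arrays and -0.166 to 0.022 on all others, so it was larger on every tumour array than on any other. No test was made of a value over chosen genes.

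**Figure D4:**
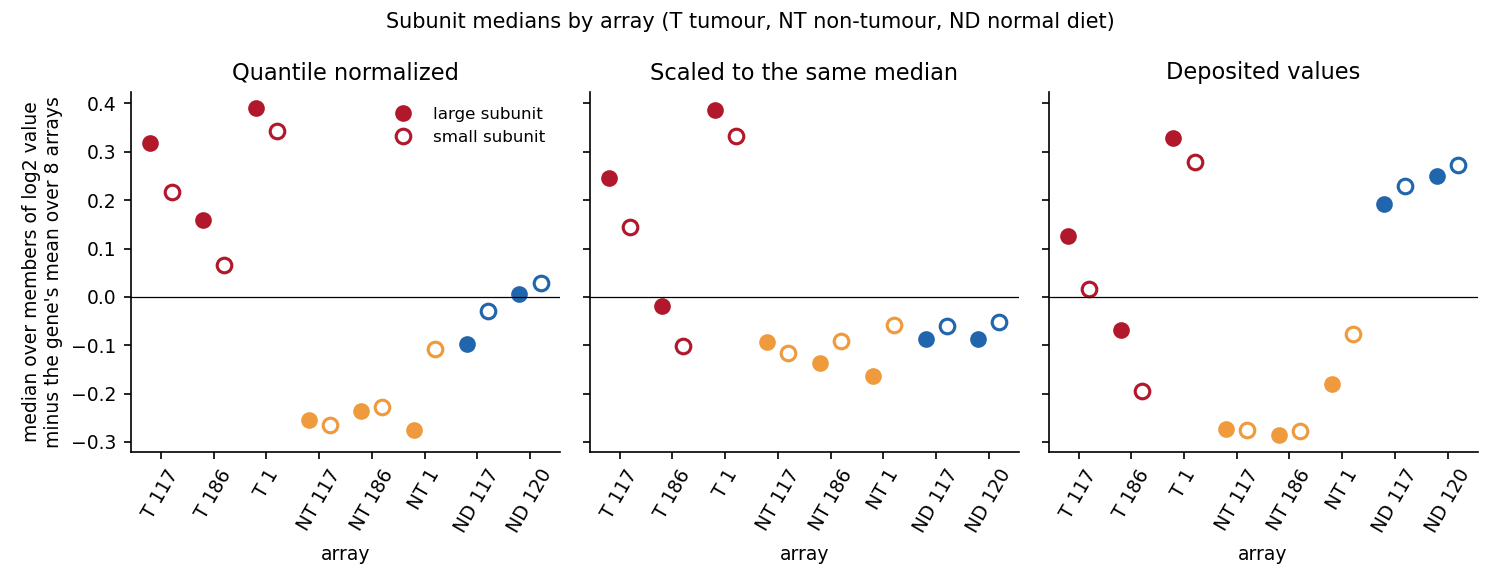
For each of the 8 arrays, points show the median over large subunit genes (filled) and small subunit genes (open) of the log2 level minus each gene's mean over the arrays, for tumours (red), non-tumour tissue (orange) and normal diet liver (blue), with a panel per scaling. Large subunit medians of tumours lie above those of non-tumour tissue in all 3 panels, and the place of the normal diet arrays changes with the scaling.

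The place of normal diet liver in that order depends on the scaling. In the deposited values the large subunit medians were 0.13, -0.07 and 0.33 in tumours, against -0.27, -0.29 and -0.18 in non-tumour tissue and 0.19 and 0.25 in normal diet liver, so normal diet liver stood among the tumours. With arrays scaled to the same median they were 0.25, -0.02 and 0.39 in tumours, against -0.09, -0.14 and -0.16 in non-tumour tissue and -0.09 on both normal diet arrays, so normal diet liver stood with non-tumour tissue. Tumours were above non-tumour tissue for the large subunit under all 3 scalings. For the small subunit the tumour of mouse 186 lay among the non-tumour samples under the last 2, at -0.19 against -0.28, -0.28 and -0.08 in the deposited values, and at -0.10 against -0.11, -0.09 and -0.06 with median scaling. As a share of the summed deposited intensity of all listed probes, the members made up 3.92%, 3.47% and 4.26% in tumours, against 2.62%, 2.71% and 2.70% in non-tumour tissue and 3.07% and 3.38% in normal diet liver. That share was highest in the tumours and lowest in non-tumour tissue, without overlap. The members' summed intensity itself was 175150, 151263 and 206344 in tumours, against 193199 and 207887 in normal diet liver. It was thus not above normal diet liver in the tumours, where the mean of all listed probes was lower. The place of normal diet liver in the order of shares therefore also depends on the total of each array. Such intensities are not counts, so the shares are not shares of molecules.

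Tumours were next set against normal diet liver, a comparison that shares its tumour arrays with the one above. These groups differ in tissue, in diet and in the scanner's gain ratio (given below), which cannot be told apart here. Here 25 of 67 members rose, 15 of the large and 10 of the small subunit, and 2 fell (Rpl21 and Rps19), where 12.9% of all genes rose and 15.0% fell. On quantile normalized values 36 of 66 members had all tumours above both normal diet livers and 5 below, where 25.9% and 32.1% of all genes did, and in the deposited values 6 had them above and 17 below, where 16.7% and 40.1% did. The medians were 0.32 for the large and 0.20 for the small subunit. Of the 25 that rose, 24 also rose against non-tumour tissue. In the deposited values the medians turned negative, -0.10 and -0.27, with 2 genes up and 6 down, where 9.28% of all genes rose and 20.2% fell and the median of all genes was -0.19. With arrays scaled to the same median 20 rose and 3 fell, where 15.9% and 24.9% of all genes did. Fewer members rose when either normal diet array was left out, which leaves a single array in that group. The share of all genes that rose in those fits is not given here. With the local background subtracted no member passed limma's test (4 higher and 3 lower at an unadjusted p below 0.05), where 220 of all 16800 genes passed.

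Rpl13a, whose protein in human cells can leave the ribosome and silence inflammatory messages, had the largest difference from normal diet liver. It was 384, 367 and 521 in tumours, against 276 and 239 in normal diet liver, and 261, 279.5 and 320.3 in non-tumour tissue. All tumours were above all other samples. The difference from normal diet liver was 0.94 ± 0.12 (SE, adjusted p = 0.00266), and it stayed positive in log2 of the deposited values, at 0.71. Among large subunit genes Rpl23 followed with 0.68 ± 0.10 (SE, adjusted p = 0.00372), its tumour values of 402, 373 and 511 being above 343 and 306 in normal diet liver. In log2 of the deposited values its difference was 0.39, which did not pass. For Rpl41, which encodes the smallest ribosomal protein, the deposited intensity was 11584, 9952 and 12422 in tumours, against 9732 and 11749 in normal diet liver. The Rpl41 groups overlapped in the deposited values, although the difference after quantile normalization was 0.59 ± 0.08 (SE, adjusted p = 0.00304).

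The rises of the next 5 small subunit genes against normal diet liver passed on quantile normalized values and with arrays scaled to the same median or 75th percentile, and did not pass in the deposited values. Rps6 rose by 0.69 ± 0.13 (SE, adjusted p = 0.0116), with tumours at 4654, 4121 and 5897, against 4301 and 4522 in normal diet liver, where the deposited values overlapped. Rps28 and Rps15 rose by 0.60 ± 0.11 and 0.53 ± 0.08 (SE, adjusted p = 0.0105 and 0.00381). Rps28 was 3496, 3304 and 4651 in tumours, against 3636 on both normal diet arrays, and Rps15 was 1918, 1938 and 1939.8, against 1753 and 2099. Rps4x and Rps13 rose by 0.51 ± 0.11 and 0.49 ± 0.08 (SE, adjusted p = 0.0183 and 0.00651), and their differences were -0.02 and -0.06 in log2 of the deposited values. Rps19 fell by 0.34 on the log2 scale (SE 0.07, adjusted p = 0.0119), and fell in the deposited values too.

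Rpl21 was 17.7 to 18.3 in the 3 tumours, against 34.7 and 32.5 in normal diet liver, and 22.3, 18.9 and 17.7 in non-tumour tissue. Both normal diet values were above all 6 high fat values. The difference of tumours from normal diet liver was -0.30 ± 0.04 (SE, adjusted p = 0.00362), and -0.90 in log2 of the deposited values. Between tumour and non-tumour tissue Rpl21 had a difference of -0.04 ± 0.04 (SE, adjusted p = 0.498).

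Non-tumour tissue of high fat diet was then set against normal diet liver, sharing its arrays with both comparisons above. Most members were lower in non-tumour tissue, but few passed the test: 1 rose (Rps19) and 3 fell (Rpl4, Rpl21 and Rpl22l1) of 67, where 1.81% of all genes rose and 2.02% fell. The fitted difference was negative for 62 members and positive for 5, with medians of -0.21 for the large and -0.16 for the small subunit. On quantile normalized values 36 of 66 members had all non-tumour samples below both normal diet livers and 3 had them above, where 23.0% and 21.2% of all genes did. On the deposited scale 56 were below and 2 above, where 31.7% and 13.0% of all genes were. The medians were -0.50 and -0.48 in the deposited values, beside an all-gene median of -0.12, and -0.07 and -0.06 with arrays scaled to the same median. By limma's test 0 rose and 2 fell in the deposited values (1 higher and 37 lower at an unadjusted p below 0.05), where 1.44% of all genes rose and 1.96% fell. With arrays scaled to the same median 2 rose and 0 fell (3 higher and 6 lower at an unadjusted p below 0.05), where 6.45% and 1.90% of all genes did.

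Rpl22l1 was 519, 628 and 442 in non-tumour tissue, against 1009 and 1274 in normal diet liver, without overlap. Its difference was -0.83 ± 0.16 (SE, adjusted p = 0.0448). Rpl4 was 2699, 3001 and 3026 in non-tumour tissue, against 4742 and 4325 in normal diet liver, a difference of -0.34 ± 0.06 (SE, adjusted p = 0.0412). Both genes thus fell in non-tumour tissue relative to normal diet liver, and both rose in tumours relative to non-tumour tissue. Rpl21 fell by 0.26 (SE 0.04, adjusted p = 0.0306), and Rps19 rose by 0.50 ± 0.07 (SE, adjusted p = 0.0171), with 112, 113 and 140.3 in non-tumour tissue, against 83.4 and 73.7 in normal diet liver.

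These diet calls were few and rested on single arrays. With arrays scaled to the same median none of the 3 falls passed, and in the deposited values neither the fall of Rpl4 nor the rise of Rps19 did. Of the 3 falls none passed without the non-tumour tissue of mouse 1, and only Rpl21 without that of mouse 117. Without that of mouse 186, Rpl4 and Rpl22l1 passed and Rpl21 did not. Only Rpl21 passed when the tumour of mouse 117, 186 or 1 was left out, although tumours are not part of this comparison. The 1 rise became 0 without the non-tumour tissue of mouse 186. Neither the falls nor the rise held when either normal diet array was left out, which leaves a single array in that group. The scanner's gain ratio in the file headers was 0.444 to 0.445 on both normal diet arrays and 0.464 to 0.465 on the 6 high fat arrays, so scanner setting and diet cannot be told apart.

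Other parts of the translation machinery were counted for tumour against non-tumour tissue. Of 17 elongation factors and other transcripts known to begin with a pyrimidine tract, 12 rose and 0 fell, where 12.0% of all genes rose, with a median of 0.46 (limma; 14 higher and 0 lower at an unadjusted p below 0.05). Pabpc1, the poly(A)-binding protein, was 2370.1, 2469 and 2518 in tumours, against 1496, 1249 and 1599 in non-tumour tissue, and rose by 1.03 ± 0.08 (SE, adjusted p = 0.000686). Vim, an intermediate filament gene whose human transcript also carries such a tract, was 433, 515 and 412 in tumours, against 248, 166 and 181 in non-tumour tissue. It rose by 1.22 ± 0.18 (SE, adjusted p = 0.00494), and Eef1b2, an elongation factor subunit, by 0.83 ± 0.12 (SE, adjusted p = 0.00449). These 3 had no overlap between groups. With arrays scaled to the same median 6 of the 17 rose (9.36% of all genes), and in the deposited values 4 rose (8.99%).

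For genes that make ribosomes or control their making the counts stand beside the 12.0% of all genes that rose and the 13.4% that fell, and nothing is read from them. Of 25 initiation factors 5 rose and 2 fell, among them Eif1a, which helps scan for the start codon, with a rise of 0.88 ± 0.18 (SE, adjusted p = 0.0157). Of 43 ribosome assembly factors 6 rose and 8 fell. Nop58, a core protein of box C/D particles that methylate ribosomal RNA, rose by 0.64 ± 0.11 (SE, adjusted p = 0.00911), and Rrs1, which helps assemble the large subunit, fell by 0.45 (SE 0.12, adjusted p = 0.0307). Of 19 RNA polymerase I genes and factors 2 rose and 1 fell. Of 19 genes of Myc and mTOR control 3 rose and 2 fell. Ddit4, an inhibitor of mTOR complex signalling, was 173, 230 and 415 in tumours, against 40.7, 80.8 and 72.5 in non-tumour tissue, without overlap, and rose by 1.60 ± 0.26 (SE, adjusted p = 0.00681). Mxi1, an antagonist of Myc, fell by 0.52 (SE 0.09, adjusted p = 0.00681). Fau, which encodes a ubiquitin-like protein fused to a small subunit protein, had a difference of 0.04 ± 0.10 (SE, adjusted p = 0.830), and it was -0.22 in log2 of the deposited values.

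**Figure D5:**
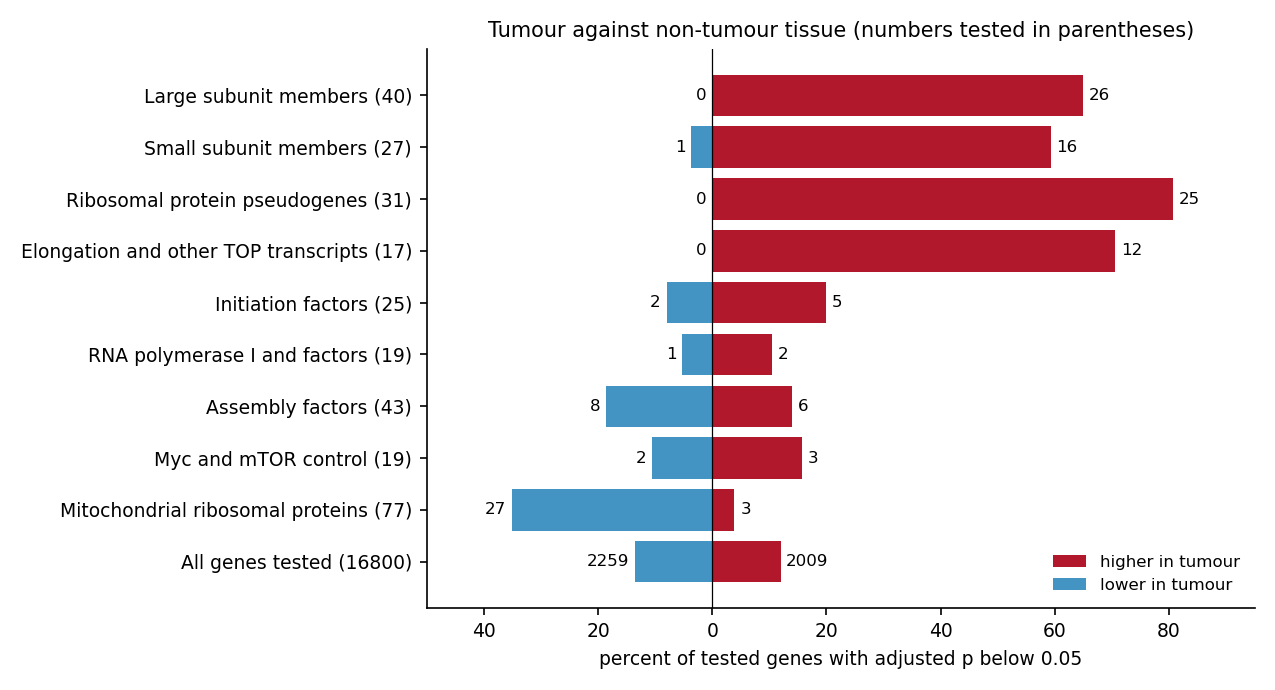
Bars give the percent of tested genes of each list that were higher (right) or lower (left) in tumours than in non-tumour tissue at an adjusted p below 0.05, with the number of genes at each bar. Both cytosolic subunits (26 and 16 higher) and the pseudogenes (25 higher of 31) reach far right, and mitochondrial ribosomal proteins (27 lower of 77) reach farthest left.

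Mitochondrial ribosomal protein genes, which serve the separate ribosome of mitochondria, were mostly on the other side of 0. Of 77 tested 3 rose and 27 fell, where 12.0% of all genes rose and 13.4% fell, with a median of -0.15. By subunit 2 of 48 rose and 16 fell in the large subunit, and 1 of 29 rose and 11 fell in the small subunit. Mrpl14 was 484, 376 and 521 in tumours, against 938, 827 and 1035.6 in non-tumour tissue, without overlap, and fell by 0.73 (SE 0.11, adjusted p = 0.00463). Mrpl36 fell by 0.55 (SE 0.12, adjusted p = 0.0211). Mrpl52 was the largest exception, rising by 0.73 ± 0.16 (SE, adjusted p = 0.0201), with 932, 720.2 and 1295 in tumours, against 637, 632 and 815 in non-tumour tissue. With arrays scaled to the same median 0 rose and 38 fell (15.7% of all genes fell), and in the deposited values 0 rose and 26 fell (13.4%). The difference between the cytosolic and the mitochondrial set was not tested.

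Probes named for ribosomal protein pseudogenes moved with the genes. Of 31 tested 25 rose and 0 fell, with a median of 0.61 (limma; 27 higher and 0 lower at an unadjusted p below 0.05). Of all genes 12.0% rose and 13.4% fell. With arrays scaled to the same median 20 of the 31 rose (9.36% of all genes), and in the deposited values 9 rose (8.99%). The medians were then 0.38 and 0.36. Rps12-ps24 rose by 0.97 ± 0.11, Rps6-ps2 by 0.94 ± 0.12 and Rpl13a-ps1 by 0.79 ± 0.08 (SE, adjusted p = 0.00171, 0.00239 and 0.00125). Processed pseudogenes are near copies of the transcript, so such a probe and its parent gene's RNA cannot be told apart here. Of the 6 probes named for Rpl21 pseudogenes 5 rose, while the probe named Rpl21 itself did not pass, and these were looked at after their values were seen. The value given for Rpl21 is that of its own dim probe.

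Cell type markers were read beside these results, as ranges of their summed deposited intensity. Their counts for tumour against non-tumour tissue stand beside the 12.0% of all genes that rose and the 13.4% that fell. Of 15 hepatocyte markers 7 rose and 2 fell in tumours relative to non-tumour tissue, and their sum was 337115 to 394663 in tumours, against 298891 to 331388 in non-tumour tissue and 382196 to 396012 in normal diet liver. This sum was higher in every tumour than in every non-tumour sample. In the deposited values 28 of 66 ribosomal protein genes were so too, and 2 were lower in every tumour. The part of the hepatocyte sum in the result was not tested. Both tested red blood cell markers fell, with sums of 108 to 119 in tumours, against 339 to 400 in non-tumour tissue and 473 to 575 in normal diet liver. Of 13 leukocyte markers none passed limma's test (1 higher and 1 lower at an unadjusted p below 0.05), with sums of 222 to 300 in tumours, against 258 to 302 in non-tumour tissue and 230 to 232 in normal diet liver. Of 11 proliferation genes 2 rose and 1 fell, with sums of 629 to 812 in tumours, against 697 to 907 in non-tumour tissue and 717 to 776 in normal diet liver. Leukocyte and proliferation sums overlapped between tumours and non-tumour tissue. In tumours relative to normal diet liver 7 of the 11 proliferation genes rose and 0 fell, with a median of 0.41, while their sums overlapped. There 12.9% of all genes rose and 15.0% fell. Of the other lists, hepatocyte markers had 4 higher and 3 lower, macrophage 2 and 2, endothelial 2 and 0, and stellate 1 and 1. Leukocyte markers had 1 and 0, cholangiocyte markers 0 and 0, and red blood cell markers 0 and 2. The part of these lists in the rise of 25 ribosomal protein genes there was not tested. In tumours relative to non-tumour tissue 1 of 10 macrophage markers rose and 2 fell, and 2 of 7 endothelial markers rose and 0 fell. Of 8 stellate cell markers 1 rose and 1 fell, and of 4 cholangiocyte markers 0 passed, also at an unadjusted p below 0.05 (limma). The sums of these 4 lists overlapped between tumours and non-tumour tissue as well.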

How the data were processed

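Total RNA of 8 mouse liver samples was amplified, coupled to Cy5 and hybridised to 1-colour arrays, per the labels' protocols. The deposited scanner intensity of a spot is its median at 635 nm; per the file headers, it was combined from scans at several gains. The authors' deposited normalized intensity equals, as recomputed, the spot median minus the blank level, divided by 1 factor per array, with 81.8% to 88.5% of probes listed per array. The scanner software is not given in the sources used here.

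Of 27456 spots 3982 control spots were left out, and of 23473 probes 20690 have 1 gene symbol in the platform's annotation. For tests the background of the scanner intensities was removed by normexp (limma 3.58.1, R 4.3.3), in which blank spots stood for signal without target, 50 was added, and log2 values were formed after quantile normalization. The 16800 genes (of 19321) whose probe had a deposited value throughout some group were tested. All 8 arrays entered 1 limma fit of the 3 groups (5 residual and 1.49 prior degrees of freedom), and 2-sided p-values were adjusted by Benjamini and Hochberg's method across the 16800 genes. The number of arrays limits the precision, and labels give 3 mice on high fat diet and 2 on normal diet. The fit was tested on simulated data.

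The labels give tumour and non-tumour tissue of the same mouse the same number. Their deviations from the group means correlated at 0.442, 0.148 and 0.167 (mice 117, 186 and 1), and between different mice at -0.274 to 0.028. The mouse was a fixed block for tumour against non-tumour tissue and a random block (consensus correlation 0.199) in comparisons with normal diet liver. Alternatives changed the background, offset, scaling, filter, probe choice, arrays in the fit and block.

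The members, the gene lists and the tests were chosen with earlier results of these data known. Genes named are the up to 5 largest canonical rises and falls per comparison and subunit that passed, of which the text takes a part, a set of genes and paralogue pairs with known roles, up to 3 called genes per list, members called in opposite directions in a pair of comparisons, and genes said to have been chosen after their values were seen. Sequences come from RefSeq tables of GRCm38.p6.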

Additional observations from a re-analysis of the deposited data

How the results depend on the processing

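The number of ribosomal protein genes that rose in tumours relative to non-tumour tissue was 42, and 26 with median scaling, 14 (2 lower) in the deposited values and 0 with the local background subtracted. Shares of all genes are given above for median scaling, the deposited values and the mouse as a fixed block. With the local background, 126 of all 16800 genes passed for tumour against non-tumour tissue. In the comparisons with normal diet liver 3 passed for non-tumour tissue and 220 for tumours. For the other alternatives such shares are not given here, and their counts are not read as particular to these members. Leaving out 1 array at a time gave 35 to 49 higher and 1 lower, with medians of 0.50 to 0.67 (large subunit) and 0.36 to 0.54 (small). The medians of 0.57 and 0.44 were 0.36 and 0.24 with median scaling, 0.38 and 0.25 with scaling to the 75th percentile, 0.34 and 0.24 in the deposited values, and 0.32 and 0.27 with the local background. With the replicate block (mouse) 37 rose; in the comparisons with normal diet liver, where it was a random block, it gave 27 higher for tumours. For non-tumour tissue against normal diet liver, 1 rose and 3 fell became 0 higher and 2 lower in the deposited values and 2 higher and 0 lower with median scaling. The counts were 2 and 13 with the 75th percentile, 1 lower with no filter, and 0 and 0 with the local background. Fitted on the compared groups only, 5 were lower (Rpl26, Rps10, Rps18, Rps29 and Rpsa), and Rpl4, Rpl21 and Rpl22l1 did not pass. Leaving out a high fat array gave 0 to 1 higher and 0 to 4 lower. With any array left out, the medians were -0.25 to -0.15 and -0.28 to -0.11. The medians were -0.50 and -0.48 (deposited), -0.071 and -0.061 (median scaling), -0.028 and -0.038 (local background), and -0.26 for the small subunit with an offset of 16. For tumours against normal diet liver, 25 higher and 2 lower became 2 and 6 (deposited), 14 and 8 (75th percentile) and 0 and 0 (local background), and 9 to 30 higher and 1 to 3 lower when arrays were left out, with medians of 0.25 to 0.42 and 0.071 to 0.295. The medians were 0.18 and 0.051 with the 75th percentile, 0.092 for the large subunit with the local background, and reversed to -0.10 and -0.27 in the deposited values.

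Single genes changed sign as follows. Between tumour and non-tumour tissue, with the local background: Rpl21 0.013, Rpl23 -0.067, Rpl39 -0.54, Rps14 -0.74, Rps27l 0.19 and Mrpl36 0.35. In the deposited values, with the 75th percentile and with median scaling, Rps2 was -0.12, -0.067 and -0.085, and Fau -0.22, -0.16 and -0.17. With arrays left out, Rpl22 ran from -0.11 to 0.043, Rpl7l1 from -0.11 to 0.014, Rps27l from -0.21 to 0.014, and Fau from -0.034 to 0.10. Between tumours and normal diet liver, in the deposited values: Rpl22l1 -0.068, Rpl4 -0.17, Rps13 -0.064 and Rps4x -0.023; with the local background: Rpl23 -0.19, Rpl4 -0.048 and Rps28 -0.0035. The causes were not tested. The number of arrays and, for probes below 100, the small signal over the blank level limit these results.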
